A study of Drosophila melanogaster with 12 samples.

Results

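The RNAs described here are 21 abundant long noncoding RNAs of the fly head, out of 1940 rows named as long noncoding RNAs and 23793 rows in the deposited count table. They are the rows whose name starts with lncRNA: and whose counts summed to at least 6000 over 12 libraries, without roX1 and roX2, the RNAs of X chromosome dosage compensation. They were chosen by these total counts, so their abundance is a description, and the tests concern how they differed between groups. The libraries were made from the heads of Drosophila melanogaster males, 50 heads per library, taken at an age of 3 days. They fall into 4 groups of 3. In all 4 groups the nSyb driver, which is active in neurons throughout the nervous system, expressed a hairpin RNA (IR) that triggers RNA interference. The hairpin was directed against dYEATS2 in the group dYEATS2-IR (genotype nSyb>dYEATS2 IR) and against dENL/AF9 in the group dENL/AF9-IR (genotype nSyb>dENL/AF9 IR). Both targets encode proteins with a YEATS domain, which reads acylated histones. The hairpin was directed against Luciferase in the group NTC IR-2 (genotype nSyb>Luciferase IR) and against mCherry in the group NTC IR-1 (genotype nSyb>mCherry IR), neither of which is a fly gene. The word young stands in the titles of dENL/AF9-IR and NTC IR-2 and not in the others, although 1 age is given for all groups. The hairpins act in neurons, while the RNA came from whole heads, which also hold glia, fat body, muscle and cuticle.

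Long noncoding RNAs are transcripts with no long open reading frame, many of them spliced and polyadenylated like messenger RNAs. Some act where they are made, on the chromosome or on a neighbouring gene, and others organise proteins in the nucleus. Hsromega, the best studied of the 21, is induced by heat shock and builds the nuclear omega speckles that hold RNA-binding proteins of the hnRNP family. CRG, the CASK regulatory gene, lies within the gene of the synaptic scaffold protein CASK and is known in flies for its part in CASK expression and climbing, and noe was described as a noncoding transcript of the nervous system. Most of the others carry only an annotation number, and no role is given for them here.

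Total counts ran from 30298251 to 54132559 per library. Group names follow the header of the table of raw counts. A second deposited table, of normalized values, gives the same counts other group names: the libraries called dYEATS2-IR, dENL/AF9-IR, NTC IR-2 and NTC IR-1 here are called NTC IR-2, dYEATS2-IR, NTC IR-1 and dENL/AF9-IR there, in that order. The test of any difference among the 4 groups is the same under both sets of names, and every other comparison is not. CPM is the count of a gene per 1000000 counts of its library, after scaling by the trimmed mean of M values (TMM). Calls are made at a false discovery rate (FDR, the Benjamini-Hochberg adjusted p over all rows tested) below 0.05. Neither hairpin target was called lower in RNA from whole heads under the names used here. D12, the gene of dYEATS2, had 8.83 ± 0.281 CPM in dYEATS2-IR and 9.05 ± 0.966 CPM in NTC IR-1. The gene of dENL/AF9, ear, had 40.6 ± 2.92 CPM in dENL/AF9-IR and 42.0 ± 7.36 CPM in NTC IR-2 (SD, n = 3 each, FDR 0.919 and 1 by edgeR's quasi-likelihood test). The ear level was lowest in NTC IR-1, at 30.8 to 33.1 CPM, and at least 34.99 CPM in all other libraries. The normalized table calls the NTC IR-1 libraries dENL/AF9-IR, and those of dYEATS2-IR here, at 36.01 to 40.1 CPM, NTC IR-2. For ear, dYEATS2-IR against NTC IR-1 had a log2 fold change of 0.23, not called (FDR 0.2805 by that test). D12 overlapped between the libraries that table calls dYEATS2-IR and NTC IR-1. The libraries labelled NTC IR-1 stood apart in Yp1, which encodes a yolk protein made in females: it had 0.124 to 0.293 CPM in dYEATS2-IR, 0 to 0.114 in dENL/AF9-IR and 0 to 0.488 in NTC IR-2, against 587 to 843 in NTC IR-1, although the label gives male flies. Summed over 12 markers, with Yp1 among them, fat body RNA was also highest in NTC IR-1, with 441 to 591 CPM in dYEATS2-IR, 469.9 to 1104 in dENL/AF9-IR, 354 to 621 in NTC IR-2 and 3020 to 3318 in NTC IR-1. Brain and eye markers were abundant in every library. All listed markers of neurons, photoreceptors, glia and muscle passed the filter on low counts, although the flight muscle troponin gene TpnC4 was at 0 in dENL/AF9-IR replicate 2. Of 5 germline and reproductive markers, vas, dj and Mst87F summed to at most 5.70 CPM in any library, and nos and osk did not pass the filter on low counts. Each p-value sets a difference between groups against the spread between these libraries, and the labels do not say that replicates were separate crosses.

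The 21 RNAs summed to 3613428 counts, which was 0.725% of all counts and 78.1% of the counts of all long noncoding RNA rows. Of the other 1917 such rows, 550 had no count in any library and 382 passed the filter used for testing, as did all 21 RNAs described here. CR42862 alone, on chromosome 3L from 224106 to 230964 on the plus strand (coordinates from the Ensembl release 115 annotation of BDGP6), held 67.3% to 79.5% of the counts of the 21 in each library. Per kilobase of annotated exon its mean over the 12 libraries was 978 CPM, against 208 for CR31451, 172 for noe, 144 for CR44832 and 97.2 for CRG. Hsromega, 3rd by total count, was 14th per kilobase with 14.1, since its exons, merged over 7 annotated transcripts, span 21710 bases. How much of that length was transcribed in these heads was not tested, so its rank depends on the annotation. CR45223 was lowest with 2.31. The plot of levels on a log axis shows the step from CR42862 to the rest.

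**Figure D1:**
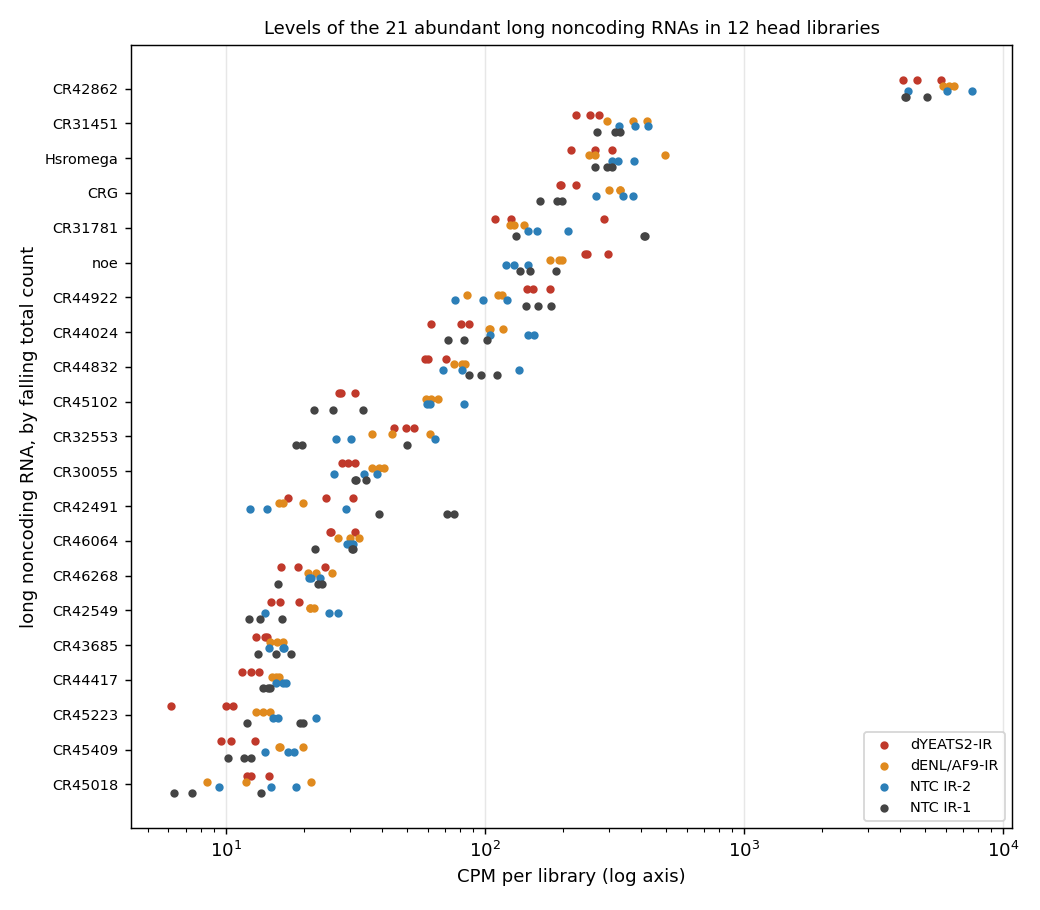
Level of each of the 21 long noncoding RNAs in CPM (log axis), 1 point per library, ordered from top to bottom by total count and coloured by group. CR42862 sat between 4108 and 7563 CPM in the 12 libraries, and every other RNA at or below 494 CPM.

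By position, 5 of the 21 lay on X, 7 on 3R, 3 each on 3L and 2R, 2 on 2L and 1 on chromosome 4. Exon lengths, merged over annotated transcripts, ran from 585 to 21710 bases, and for 11 of the RNAs the exons merged into 1 block. A protein-coding gene overlapped the span of 11, on the same strand for 8 and on the other strand for 3. Of these, 7 shared exon bases with that gene on the same strand, so their reads cannot be fully separated from those of the messenger RNA. How the authors' counting used strand and overlaps is not given in the sources used here, so the counts of all 11 are uncertain to that extent. Between libraries the 21 differed widely in steadiness. The highest library was 1.37 times the lowest for CR43685 and 6.14 times for CR42491, and the median coefficient of variation within groups ran from 4.09% for CR44417 to 39.3% for CR32553.

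**Figure D2:**
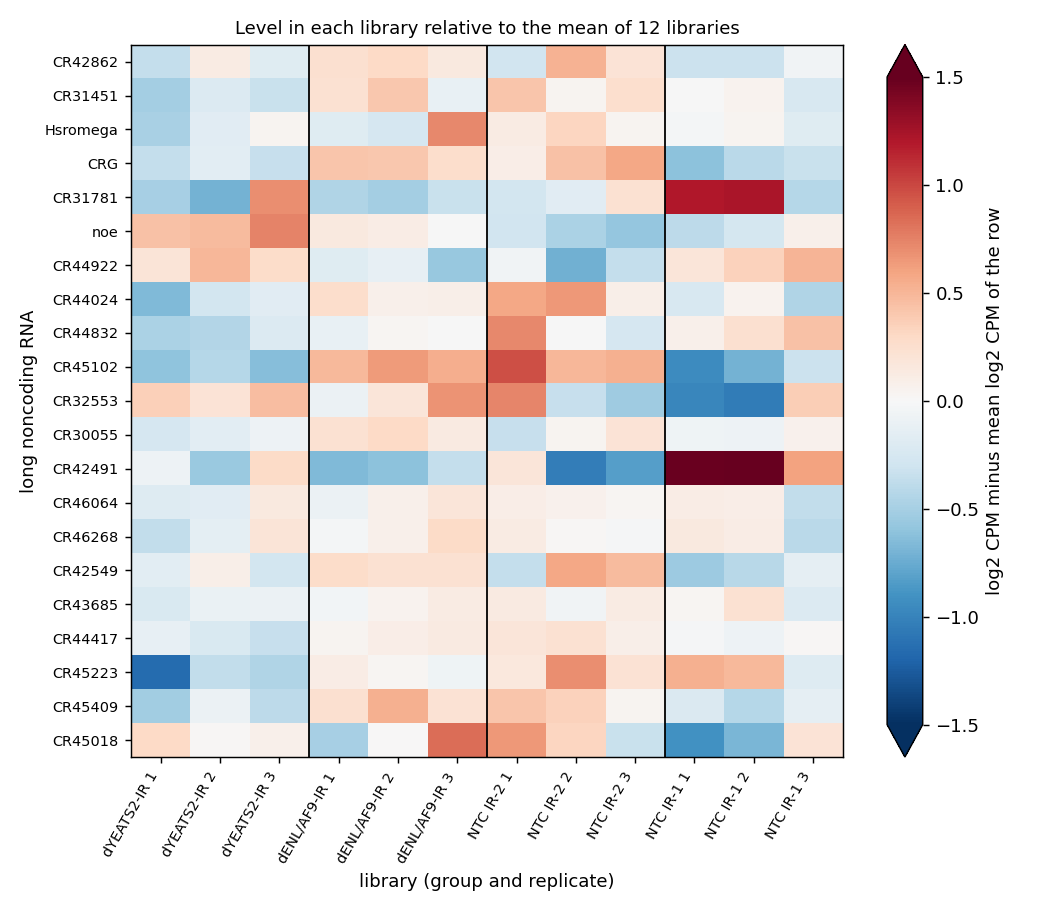
Level of each long noncoding RNA in each library as log2 CPM minus the mean log2 CPM of that RNA over the 12 libraries, with red above and blue below the mean and black lines between groups. CRG and CR45102 are red in the 6 libraries of dENL/AF9-IR and NTC IR-2 and blue in the 6 of dYEATS2-IR and NTC IR-1, noe is reddest in dYEATS2-IR, and CR31781 and CR42491 are reddest in NTC IR-1 replicates 1 and 2.

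Across the 4 groups, 10 of the 21 RNAs (47.6%) differed at FDR below 0.05 by edgeR's quasi-likelihood F test, against 19.6% of all 12661 rows tested and 26.1% of the 6180 other rows with a total of at least 6000. Of the 382 other long noncoding RNA rows, 26 were called. The 10 were CR45102 (FDR 0.000736), CRG (0.00276), noe (0.0033), CR42491 (0.00729), CR45409 (0.0166), CR44922 (0.0190), CR44024 (0.0241), CR45223 (0.0424), CR44417 (0.0436) and CR31451 (0.0445). The abundant CR42862 and Hsromega were not among them, with FDR 0.198 and 0.513. Without NTC IR-1 replicate 1, or without replicate 2, 6 of the 10 kept an FDR below 0.05. With library totals in place of TMM, 5 did: CR45102, CRG, noe, CR42491 and CR44922.

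The knockdown of dYEATS2 was compared with NTC IR-1, the control listed beside it in the study's design. In dYEATS2-IR 1 of the 21 RNAs rose, noe, and 1 fell, CR42491, together 2 of 21 where 4.77% of all rows were called. Among all rows 2.42% rose and 2.35% fell, and among other rows with a total of at least 6000, 5.1% were called. The libraries of both groups did not overlap for 6 of the 21, against 29.3% of all rows. The median log2 fold change of the 21 was -0.06, against -0.24 for the 382 other long noncoding RNA rows and -0.02 for all rows tested.

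The RNA noe, on chromosome 3L from 17400272 to 17401348 on the minus strand, lies within the gene blot without sharing its exons. It had 243, 248 and 299.6 CPM in dYEATS2-IR, 197.5, 194 and 178 in dENL/AF9-IR, 147, 129 and 120.05 in NTC IR-2, against 136, 149 and 188 in NTC IR-1. All 3 dYEATS2-IR libraries were above the other 9. The mean was 263 ± 31.4 CPM in dYEATS2-IR and 158 ± 27.3 in NTC IR-1 (SD, n = 3 each), so the log2 fold change was 0.74, with SE 0.135 and FDR 0.0127 by edgeR's quasi-likelihood test, and against NTC IR-2 it was 1.00 (SE 0.136, FDR 0.00251). The call against NTC IR-1 was lost without dYEATS2-IR replicate 3 (FDR 0.0552), without NTC IR-1 replicate 1 (0.0695) or 2 (0.0822), and with only the 6 libraries compared (0.0571). With the group names of the normalized table, the same libraries give a log2 fold change of -0.74 for noe, for dENL/AF9-IR against NTC IR-2. The host gene blot, a transporter gene, was not called in the same comparison (log2 fold change 0.28, FDR 0.0955). Its libraries did not overlap there, with 40.5, 43.1 and 43.4 CPM in dYEATS2-IR and 33.8, 33.1 and 37.5 in NTC IR-1. Such a lack of overlap, in either direction, was seen for 29.3% of all rows.

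Photoreceptor RNA moved in the same comparison. Summed over 14 markers, it was 54650 to 62490 CPM in dYEATS2-IR, 41650 to 61500 in dENL/AF9-IR, 37890 to 50440 in NTC IR-2 and 30120 to 44860 in NTC IR-1. In dYEATS2-IR against NTC IR-1, 7 of the 14 rose, where 2.42% of all rows did. The part of photoreceptor RNA in the result for noe was not tested. In RNA from whole heads, fewer cells of a type and less RNA per cell cannot be told apart.

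CR42491 lies on X from 762615 to 763810 on the minus strand, within RpL22, a ribosomal protein gene, with which it shares 377 exon bases on the same strand. The snoRNA gene snoRNA:Psi18S-531, of the kind that guides pseudouridine formation in ribosomal RNA, lies inside it. Its level was 24.3, 17.3 and 31.1 CPM in dYEATS2-IR, 16.1, 16.7 and 19.9 in dENL/AF9-IR, 29.0, 12.4 and 14.4 in NTC IR-2, against 71.2, 76.2 and 38.9 in NTC IR-1. All 3 NTC IR-1 libraries were above the other 9, and replicate 3 was the lowest of them. Against NTC IR-1, the log2 fold change was -1.36 in dYEATS2-IR (SE 0.338, FDR 0.0451), -1.82 in dENL/AF9-IR (SE 0.343, FDR 0.00784) and -1.74 in NTC IR-2 (SE 0.343, FDR 0.00731), all by edgeR's quasi-likelihood test. These 3 comparisons share the NTC IR-1 libraries. Against NTC IR-2 the change in dYEATS2-IR was 0.38 (SE 0.336, FDR 0.518). When each library was left out in turn, 5 of 6 fits lost the call in dYEATS2-IR against NTC IR-1 (log2 fold changes -1.60 to -1.16, FDR up to 0.174), and the fit without NTC IR-1 replicate 3 kept it.

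The host gene RpL22 was also highest in NTC IR-1, then in dYEATS2-IR, with 457, 403 and 542 CPM in dYEATS2-IR, 274, 263 and 383 in dENL/AF9-IR, 391, 271 and 213 in NTC IR-2, against 758, 657 and 563 in NTC IR-1. RpL22 had a log2 fold change of -0.50 in dYEATS2-IR against NTC IR-1 (FDR 0.226) and -1.18 in NTC IR-2 against NTC IR-1 (FDR 0.00648), smaller in size than that of CR42491 in both. The snoRNA had log2 fold changes of -0.61 (FDR 0.159) and -0.73 (FDR 0.0498) in the same comparisons. Since exon bases are shared, the level of CR42491 may include reads of the RpL22 messenger RNA, which was not tested. Fat body and yolk protein RNA was also highest in NTC IR-1, and its part in the result was not tested.

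CR45223, on 3R from 17646903 to 17653478 on the minus strand, and CR44417, on 2R from 17869027 to 17869857 on the plus strand, were lowest in dYEATS2-IR. CR45223 had 6.15, 10.6 and 10.04 CPM in dYEATS2-IR, 14.8, 13.9 and 13.1 in dENL/AF9-IR, 15.2, 22.2 and 15.9 in NTC IR-2, against 19.8, 19.3 and 12.02 in NTC IR-1. CR44417, which had the lowest median coefficient of variation within groups of the 21 (4.09%), had 13.4, 12.5 and 11.5 CPM in dYEATS2-IR, 15.0, 15.6 and 16.0 in dENL/AF9-IR, 16.6, 17.1 and 15.5 in NTC IR-2, against 14.5, 13.9 and 14.8 in NTC IR-1. For each RNA the 3 dYEATS2-IR libraries were below the other 9. Against NTC IR-1 neither change passed the test, at -0.93 for CR45223 (SE 0.241, FDR 0.0515) and -0.21 for CR44417 (SE 0.0946, FDR 0.229). Against NTC IR-2 both fell, CR45223 by 0.99 (SE 0.241, FDR 0.0285) and CR44417 by 0.40 on the log2 scale (SE 0.0948, FDR 0.0261). The genes that overlap them on the other strand, CG14322 and Mapmodulin, had log2 fold changes of -0.08 (FDR 0.732) and 0.09 (FDR 0.643) in dYEATS2-IR against NTC IR-1.

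CR44832, an RNA of 585 bases on X from 5790952 to 5791536 on the minus strand, had 58.8, 60.5 and 70.9 CPM in dYEATS2-IR, 76.0, 83.7 and 81.3 in dENL/AF9-IR, 135, 81.7 and 68.6 in NTC IR-2, against 86.4, 96.8 and 111 in NTC IR-1. The libraries of dYEATS2-IR were all below those of NTC IR-1, and those of NTC IR-2 overlapped both. The change against NTC IR-1 was -0.63 (SE 0.207, FDR 0.108), and it was called when the 6 libraries compared were fitted alone (FDR 0.0458) and by DESeq2 (FDR 0.0412). DESeq2 called 4 of the 21 in this comparison, noe higher and CR42491, CR45223 and CR44832 lower.

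The choice of control changed the result for dYEATS2-IR. Against NTC IR-2, 9 of the 21 RNAs were called, where 9.17% of all rows and 11.9% of other rows with a total of at least 6000 were. Of the 9, 2 rose (noe and CR44922), where 3.85% of all rows did, and 7 fell (CR31451, CRG, CR44024, CR45102, CR44417, CR45223 and CR45409), where 5.32% did. Libraries did not overlap for 11 of the 21, against 29.5% of all rows. Of the 9, only noe was also called against NTC IR-1. For dENL/AF9-IR against NTC IR-1, 5 of the 21 were called, where 15.6% of all rows and 22.6% of other rows with a total of at least 6000 were. Of the 5, 3 rose (CRG, CR45102 and CR45409), where 8.67% of all rows did, and 2 fell (CR44922 and CR42491), where 6.92% did. Libraries did not overlap for 11 of the 21, against 39.5% of all rows. The log2 fold changes of CRG and CR45102 in dYEATS2-IR were 0.16 and 0.08 against NTC IR-1, and -0.67 and -1.24 against NTC IR-2. In dENL/AF9-IR they were -0.03 and -0.13 against NTC IR-2, and 0.81 and 1.19 against NTC IR-1.

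**Figure D3:**
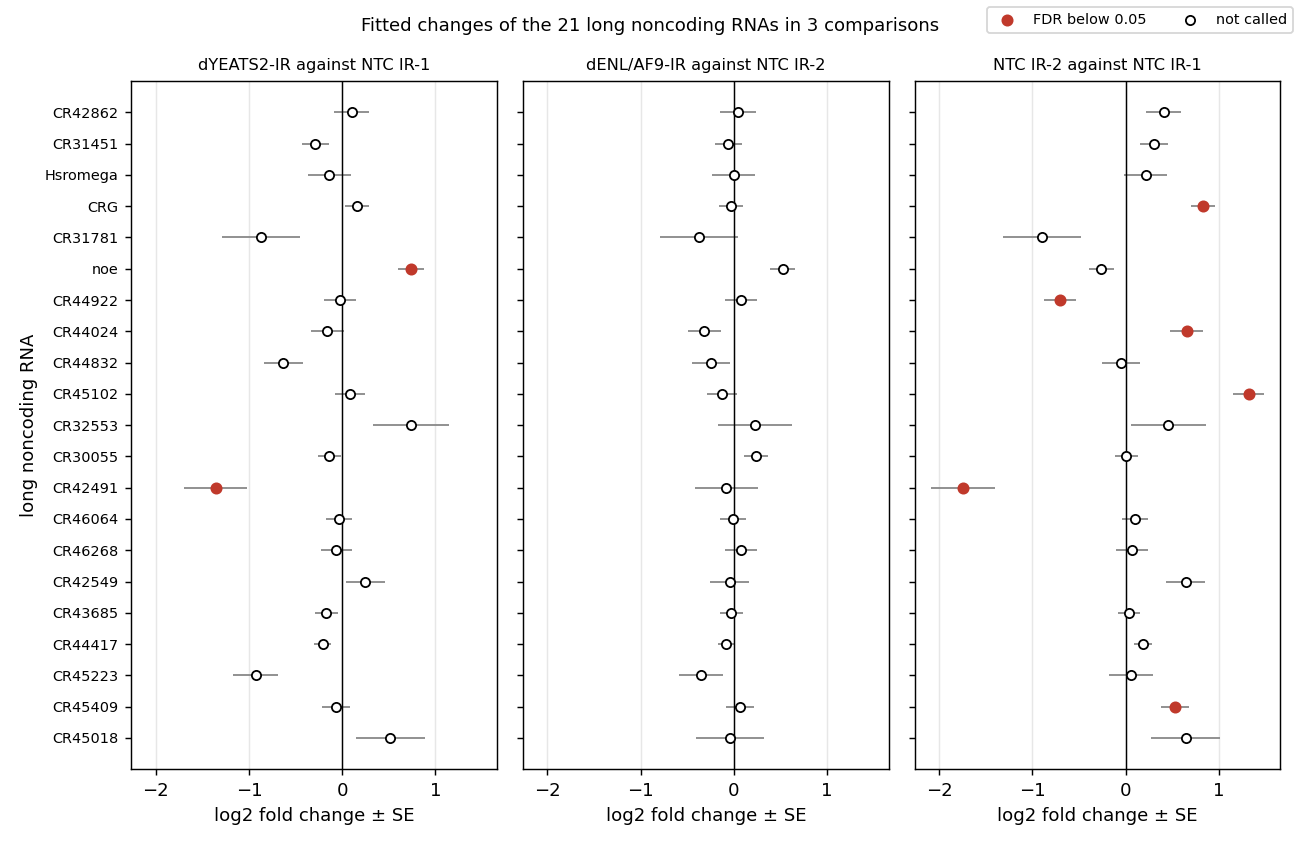
Log2 fold change of each long noncoding RNA in dYEATS2-IR against NTC IR-1, dENL/AF9-IR against NTC IR-2 and NTC IR-2 against NTC IR-1, from the fit across all rows (points, with standard errors as bars, red where FDR was below 0.05). Called are 2 RNAs in the comparison on the left, 0 in the middle and 6 on the right.

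The knockdown of dENL/AF9 was compared with NTC IR-2. By edgeR's quasi-likelihood test 0 of the 21 RNAs were called (0% of all rows were), by DESeq2 also 0, and 1 had an unadjusted p below 0.05, where 5.22% of all rows did. That RNA was noe, with 190 ± 10.1 CPM in dENL/AF9-IR and 132 ± 13.7 CPM in NTC IR-2 (SD, n = 3 each). Its log2 fold change was 0.52 (SE 0.135, FDR 0.597), and its libraries did not overlap between the groups. They also did not overlap for CR31781 and CR45223, both lower in dENL/AF9-IR, so for 3 of 21 in all, against 9.22% of all rows. The fitted changes of the other 20 RNAs ran from -0.38 (SE 0.420, CR31781) to 0.24 (SE 0.125, CR30055), and the median of the 21 was -0.03. For CR42862, the most abundant, the change was 0.04 (SE 0.189), and for Hsromega it was 0.00 (SE 0.229).

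Whether both knockdown effects differed was tested as an interaction, the dYEATS2-IR effect over NTC IR-1 minus the dENL/AF9-IR effect over NTC IR-2. In this test 0 of the 21 RNAs were called by edgeR's quasi-likelihood test, where 0.932% of all rows were, and 0 by DESeq2. CR42491 had the only unadjusted p below 0.05, where 14.2% of all rows did, with a difference of -1.28 (SE 0.475, FDR 0.255). For noe, whose fitted change was positive in both, the difference was 0.21 (SE 0.190, FDR 0.659). With the group names of the normalized table, the difference for noe was 1.26 (FDR 0.00642) and was the only call.

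NTC IR-2 and NTC IR-1, whose hairpins have no fly target, differed from each other. In NTC IR-2 against NTC IR-1, 4 of the 21 RNAs rose (CRG, CR45102, CR44024 and CR45409) and 2 fell (CR44922 and CR42491), together 6 of 21 where 19.5% of all rows were called and 26.9% of the other rows with a total of at least 6000. Of all rows 10.3% rose and 9.16% fell. Libraries did not overlap for 7 of 21, against 33.5% of all rows. With library totals in place of TMM, 2 rose (CRG and CR45102) and 3 fell (CR44922, CR42491 and noe), and under that scaling the median log2 fold change of all rows was -0.19, where it was -0.04 under TMM. Without NTC IR-2 replicate 2, 3 of the 6 were called.

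CRG lies on 3R from 21783540 to 21786208 on the minus strand, and all of its 2669 bases are also annotated as exon of CASK on the same strand. It had 195, 225 and 197 CPM in dYEATS2-IR, 333, 331 and 299.8 in dENL/AF9-IR, 267, 340.3 and 374 in NTC IR-2, against 163, 189 and 199 in NTC IR-1. The 6 libraries of dENL/AF9-IR and NTC IR-2 were all above the 6 of dYEATS2-IR and NTC IR-1. In NTC IR-2 against NTC IR-1 the log2 fold change was 0.83 (SE 0.129, FDR 0.00285 by edgeR's quasi-likelihood test), and in dYEATS2-IR against NTC IR-1 it was 0.16 (SE 0.128, FDR 0.496). The call between controls held whichever of the 6 libraries was left out (log2 fold changes 0.73 to 0.96). CASK itself had 612, 684 and 598 CPM in dYEATS2-IR, 782, 742 and 640.2 in dENL/AF9-IR, 633, 824 and 813 in NTC IR-2, against 505, 561 and 521 in NTC IR-1. The CASK libraries of both controls did not overlap, with a log2 fold change of 0.52 (SE 0.121, FDR 0.0143), while those of dENL/AF9-IR overlapped those of dYEATS2-IR. Reads in the shared bases cannot be given to either gene.

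CR45102, on X from 3701857 to 3703285 on the plus strand, begins 184 bases beyond Mnt, a gene of the Myc and Max family of transcription factors on the same strand. Its level was 27.7, 31.4 and 27.2 CPM in dYEATS2-IR, 59.0, 65.7 and 61.7 in dENL/AF9-IR, 82.6, 59.9 and 61.2 in NTC IR-2, against 21.9, 25.8 and 33.8 in NTC IR-1. The lowest library of dENL/AF9-IR and NTC IR-2, at 59.0 CPM, was above the highest of dYEATS2-IR and NTC IR-1, at 33.8 CPM. Its log2 fold change in NTC IR-2 against NTC IR-1 was 1.32 (SE 0.164, FDR 0.00151) and held whichever of the 6 libraries was left out (1.16 to 1.51). In dYEATS2-IR against NTC IR-1 it was 0.08 (SE 0.163, FDR 0.820). Of the neighbours, Mnt rose in dYEATS2-IR against NTC IR-1 (log2 fold change 0.43, FDR 0.0241) as well as in NTC IR-2 against NTC IR-1 (0.62, FDR 0.00221). Rala, a small GTPase gene 1324 bases away on the other strand, had log2 fold changes of 0.00 (FDR 0.998) and 0.69 (FDR 0.00880) in these comparisons. Its 6 libraries of dENL/AF9-IR and NTC IR-2, at 62.3 to 77.9 CPM, were above the 6 of dYEATS2-IR and NTC IR-1, at 37.0 to 54.6 CPM, as for CR45102.

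CR44922, on 3R from 4375084 to 4377600 on the plus strand, moved the other way. It had 145, 178 and 153 CPM in dYEATS2-IR, 112, 116 and 85.4 in dENL/AF9-IR, 121, 76.8 and 98.3 in NTC IR-2, against 144, 161 and 179 in NTC IR-1. The 6 libraries of dENL/AF9-IR and NTC IR-2 were all below the 6 of dYEATS2-IR and NTC IR-1. The log2 fold change was -0.71 in NTC IR-2 against NTC IR-1 (SE 0.173, FDR 0.0172), lost without NTC IR-2 replicate 2 (FDR 0.0609) and without NTC IR-1 replicate 2 (0.0507). Its neighbours lie on the same strand, 8228 and 999 bases away, and changed by 0.67 (CG1090, FDR 0.00168) and -0.38 (Sfxn1-3, a sideroflexin gene, FDR 0.0196) in that comparison.

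CR44024, the only one of the 21 on chromosome 4, from 427331 to 431769 on the plus strand, had 61.8, 80.8 and 87.1 CPM in dYEATS2-IR, 117, 104 and 104 in dENL/AF9-IR, 146, 154 and 104 in NTC IR-2, against 83.0, 102 and 71.9 in NTC IR-1. CR45409, on 3L from 8309351 to 8310512 on the minus strand, where it shares 20 exon bases with Cpsf6, had 9.58, 12.9 and 10.5 CPM in dYEATS2-IR, 16.2, 19.8 and 16.0 in dENL/AF9-IR, 18.3, 17.4 and 14.1 in NTC IR-2, against 11.8, 10.2 and 12.5 in NTC IR-1. For both RNAs the 6 libraries of dENL/AF9-IR and NTC IR-2 were above the other 6, by a narrow margin for CR44024. The log2 fold changes in NTC IR-2 against NTC IR-1 were 0.66 for CR44024 (SE 0.177, FDR 0.0260) and 0.53 for CR45409 (SE 0.152, FDR 0.0328). Leaving out a library ended the call of CR44024 in 4 of 6 fits (NTC IR-2 replicates 1 and 2, NTC IR-1 replicates 1 and 3) and that of CR45409 in 4 of 6 (NTC IR-2 replicates 1 and 2, NTC IR-1 replicates 1 and 2), with FDR up to 0.0919 and 0.129. CR42549, within the ubiquitin ligase gene mura, had 12.3 to 27.0 CPM over the 12 libraries and missed the threshold narrowly in that comparison (log2 fold change 0.65, SE 0.209, FDR 0.05003).

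**Figure D4:**
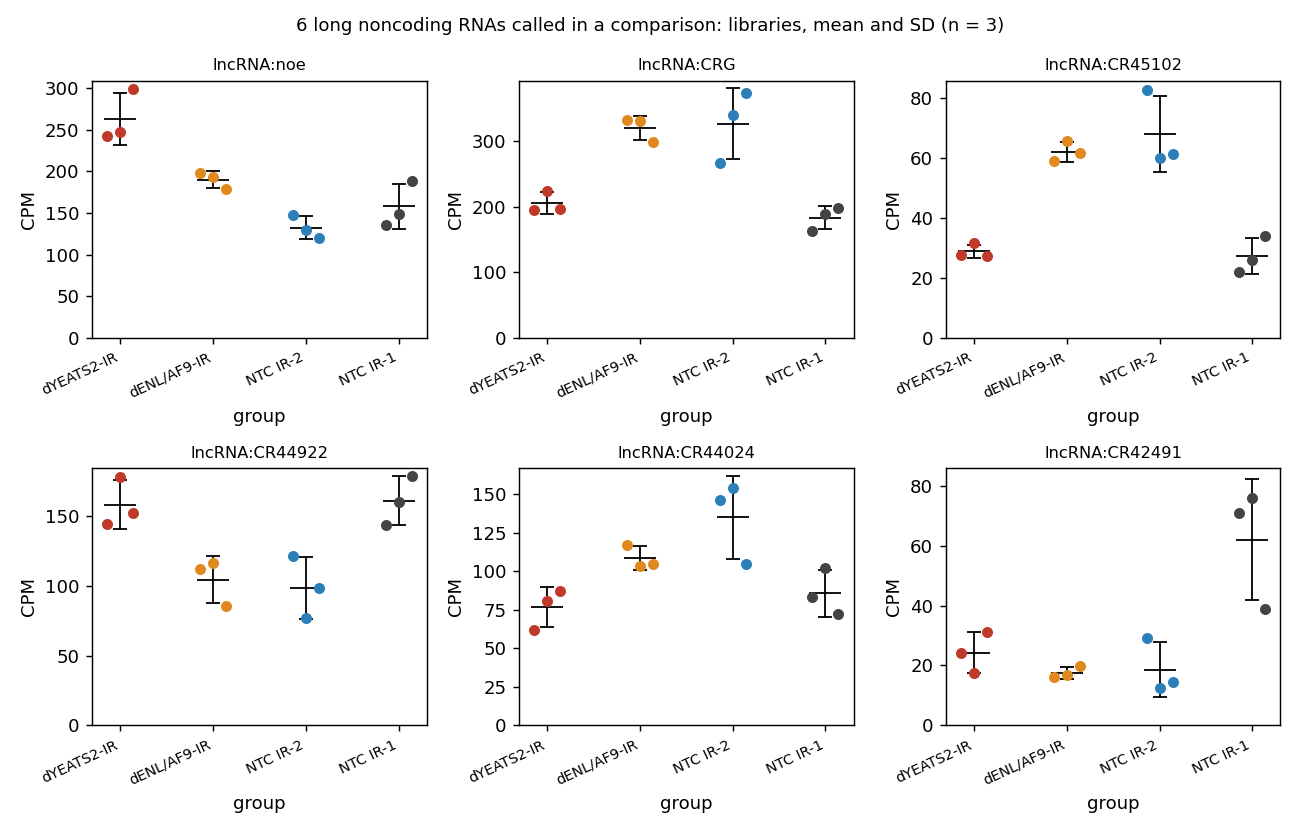
Levels in CPM of 6 long noncoding RNAs called in at least 1 comparison, 1 point per library in replicate order, with the mean (long bar) and SD (n = 3 per group). For CRG, CR45102 and CR44024 the 6 libraries of dENL/AF9-IR and NTC IR-2 lie above the other 6, for CR44922 below them, while noe is highest in dYEATS2-IR and CR42491 in NTC IR-1.

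The 12 libraries also fall into a pair of sets of 6, and 6 of the 21 RNAs did not overlap between the 6 libraries of dENL/AF9-IR and NTC IR-2 and the 6 of dYEATS2-IR and NTC IR-1, where 9% of all rows and 13.7% of other rows with a total of at least 6000 did not. CRG, CR45102, CR44024, CR44417 and CR45409 were higher in dENL/AF9-IR and NTC IR-2, and CR44922 was lower there. Under either set of group names, each of these sets holds a knockdown and the control listed beside it, so the genotypes and anything else in which the sets differed cannot be told apart. Neuronal RNA moved with the split: summed over 12 markers it was 6814 to 8422 CPM in dYEATS2-IR, 8922 to 10670 in dENL/AF9-IR, 8965 to 11190 in NTC IR-2 and 5727 to 6832 in NTC IR-1. In NTC IR-2 against NTC IR-1, 9 of the 12 rose, where 10.3% of all rows did. The part of neuronal RNA in the results for these RNAs was not tested.

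CR42862 had 4108, 5729 and 4631 CPM in dYEATS2-IR, 6190.5, 6449.6 and 5844 in dENL/AF9-IR, 4301, 7563 and 6062 in NTC IR-2, against 4218, 4193 and 5079 in NTC IR-1. The 3 dENL/AF9-IR libraries were above all 6 of dYEATS2-IR and NTC IR-1, while NTC IR-2 spread over most of the range. The log2 fold change was 0.10 (SE 0.189, FDR 0.811) in dYEATS2-IR against NTC IR-1 and 0.41 (SE 0.190, FDR 0.149) in NTC IR-2 against NTC IR-1. Without NTC IR-2 replicate 1, edgeR called it higher between these controls (0.60, FDR 0.0210) and different across the 4 groups (FDR 0.0365). It shares 246 exon bases with CG33229 on the same strand, whose mean over the 12 libraries was 47.0 CPM. Its neighbours on the other strand, pyx, which encodes a transient receptor potential channel, and CG42846, had means of 6.88 and 4.19 CPM.

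CR31451, also known as mimi, on 3R from 23983503 to 23985065 on the plus strand, overlaps the microRNA gene mir-9381 by 67 bases. It had 224, 276 and 253 CPM in dYEATS2-IR, 373, 421 and 296 in dENL/AF9-IR, 427, 328 and 380.2 in NTC IR-2, against 317, 331 and 269.9 in NTC IR-1. The 3 dYEATS2-IR libraries were below those of dENL/AF9-IR and NTC IR-2, and the highest of them was above the lowest of NTC IR-1. In dYEATS2-IR the log2 fold change was -0.59 against NTC IR-2 (SE 0.148, FDR 0.0308) and -0.29 against NTC IR-1 (SE 0.148, FDR 0.290).

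CR31781, on 2L from 16869346 to 16878300 on the plus strand, varied within groups. It had 126, 109 and 288 CPM in dYEATS2-IR, 129.7, 125 and 141 in dENL/AF9-IR, 147, 158 and 208 in NTC IR-2, against 409.8, 415 and 132 in NTC IR-1. Replicates 1 and 2 of NTC IR-1 were the highest of the 12, and replicate 3 was among the lowest 5. Replicates 1 and 2 also differed from replicate 3 in heat shock RNA, with 253 and 250.1 CPM of Hsp70Aa against 9.61, and the part of this in the result was not tested. The log2 fold change of -0.87 in dYEATS2-IR against NTC IR-1 (SE 0.422, FDR 0.261) was not called, and without NTC IR-1 replicate 3 it was -1.24 (FDR 0.0495). CR32553, with 18.7 to 64.3 CPM over the 12 libraries, had 19.7, 18.7 and 49.8 CPM in NTC IR-1, so replicate 3 was again apart from the other 2, and without it 5 of the 21 RNAs were called in dYEATS2-IR against NTC IR-1 (2 higher, 3 lower). Without dYEATS2-IR replicate 3, NTC IR-1 replicate 1 or NTC IR-1 replicate 2, none was.

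Hsromega lies on 3R from 21296127 to 21317836 on the plus strand, with the microRNA gene mir-4951 inside it. It had 215, 267 and 309 CPM in dYEATS2-IR, 265, 253 and 494 in dENL/AF9-IR, 326, 376 and 309.6 in NTC IR-2, against 295, 310.2 and 265 in NTC IR-1. Most groups overlapped: only dYEATS2-IR and NTC IR-2 did not, by less than 1 CPM, and dENL/AF9-IR replicate 3 was above the other 11 libraries. The log2 fold change was -0.14 (SE 0.229, FDR 0.781) in dYEATS2-IR against NTC IR-1 and 0.22 (SE 0.229, FDR 0.536) in NTC IR-2 against NTC IR-1.

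Heat shock RNA varied between libraries of the same group. Hsp70Aa, a copy of the main inducible chaperone gene, had 6.03, 9.56 and 16.0 CPM in dYEATS2-IR, 7.75, 6.89 and 587 in dENL/AF9-IR, 27.0, 313 and 22.0 in NTC IR-2, against 253, 250.1 and 9.61 in NTC IR-1. Copies of Hsp70 are nearly identical, so the share of reads each copy received is uncertain. Within each of the 4 groups the library with the lowest Hsp70Aa also had the lowest Hsromega. For another copy, Hsp70Bb, this held in NTC IR-2 and NTC IR-1 and not in dYEATS2-IR and dENL/AF9-IR. Hsp70Bb had 476, 426 and 529 CPM in dYEATS2-IR and 28.2, 31.4 and 322 in dENL/AF9-IR. It had 160, 284 and 107 CPM in NTC IR-2 and 281, 257 and 30.3 in NTC IR-1. In dENL/AF9-IR and NTC IR-2 the library with the highest Hsp70Aa also had the highest Hsromega and Hsp83, the HSP90 gene, at 1895 and 2118 CPM. In NTC IR-1 replicates 1 and 2 Hsp83 was lower, at 256 and 260.5 CPM, than in replicate 3 with 376. By edgeR's quasi-likelihood test 0 of 15 heat shock genes were called in any of the 3 comparisons. In dYEATS2-IR against NTC IR-1 their median log2 fold change was -1.91, with 11 negative and 4 positive. By that edgeR test 7 had an unadjusted p below 0.05 there, while 1 did between the controls and 0 did for dENL/AF9-IR. Of all 12661 rows, 2724, 4430 and 661 did, in that order. DESeq2 called 0, 0 and 1 of the heat shock genes in dYEATS2-IR, dENL/AF9-IR and NTC IR-2, and gave no adjusted p for 8 of the 15. Their part in the level of Hsromega was not tested.

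**Figure D5:**
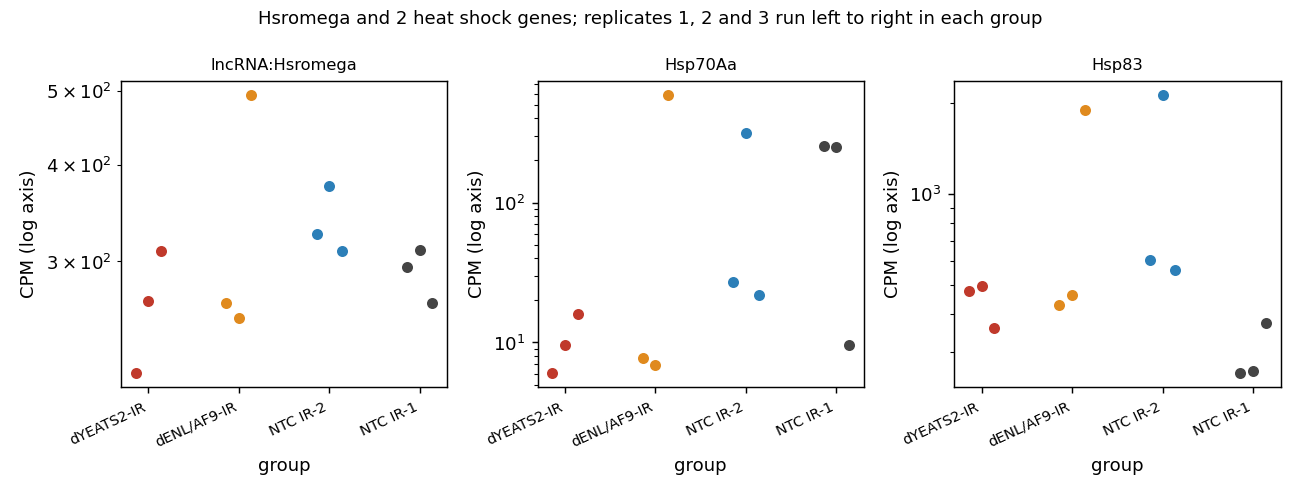
Levels of lncRNA:Hsromega, Hsp70Aa and Hsp83 in CPM (log axes), 1 point per library with replicates 1 to 3 from left to right in each group. Replicate 3 of dENL/AF9-IR and replicate 2 of NTC IR-2 are the highest of their group in all 3 panels, at 494 and 376 CPM for lncRNA:Hsromega, while replicates 1 and 2 of NTC IR-1 are high for Hsp70Aa and low for Hsp83.

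Genes of 9 proteins known from omega speckles or hnRNP particles were steadier. Neither knockdown had a call among them by edgeR against the control listed beside it, and DESeq2 called 1 in dYEATS2-IR and 0 in dENL/AF9-IR. By edgeR 2 had an unadjusted p below 0.05 in dYEATS2-IR and 0 in dENL/AF9-IR, where 2724 and 661 of all 12661 rows did. In NTC IR-2 against NTC IR-1, where 10.3% of all rows rose, 2 of the 9 rose. These were sqd, an hnRNP gene (log2 fold change 0.29, SE 0.0899, FDR 0.0460), and nonA, which encodes an RNA-binding protein (0.53, SE 0.119, FDR 0.0122). Hrb87F, whose product is a core omega speckle protein, had 68.5 ± 3.31 CPM in dYEATS2-IR, 79.7 ± 1.44 in dENL/AF9-IR, 81.8 ± 0.807 in NTC IR-2 and 80.1 ± 4.17 in NTC IR-1 (SD, n = 3 each), and its change of -0.23 in dYEATS2-IR against NTC IR-1 was not called (FDR 0.109).

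The remaining RNAs were called in none of the comparisons. CR30055, on the other strand within Sin3A, a corepressor gene, had 26.1 to 40.9 CPM over the 12 libraries. Its log2 fold change was -0.14 (SE 0.126) in dYEATS2-IR against NTC IR-1, where the libraries did not overlap, and 0.24 (SE 0.125) for dENL/AF9-IR against NTC IR-2. CR46064 had 22.1 to 32.5 CPM, CR46268 15.9 to 25.7 and CR43685 13.04 to 17.9. The fitted changes of these 3 RNAs ran from -0.17 to 0.10 in the comparisons of each knockdown with the control listed beside it and of NTC IR-2 with NTC IR-1. CR46268 overlaps exons of CG17490 over 2313 bases on the same strand, and that gene had a mean of 1.89 CPM, below the 21.3 CPM of CR46268.

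CR45018, within the kinase gene IP3K2 with 1433 shared exon bases, was nearest above the minimum total, with 6071 counts, after CR45409 with 7014 and CR45223 with 7176. It had 14.6, 12.04 and 12.5 CPM in dYEATS2-IR, 8.43, 11.97 and 21.3 in dENL/AF9-IR, 18.7, 14.9 and 9.43 in NTC IR-2, against 6.31, 7.38 and 13.7 in NTC IR-1. The groups overlapped. Just below the minimum were CR44946 with 5631 counts, CR45180 with 5543 and CR45197 with 5442. CR44946 had 7.62, 9.16 and 16.3 CPM in dYEATS2-IR, 9.58, 12.8 and 11.7 in dENL/AF9-IR, 14.2, 8.21 and 6.43 in NTC IR-2, against 17.6, 16.8 and 7.76 in NTC IR-1. CR45180 had 8.23, 10.3 and 10.7 CPM in dYEATS2-IR, 13.7, 13.6 and 13.3 in dENL/AF9-IR, 15.2, 11.7 and 9.34 in NTC IR-2, against 9.11, 9.87 and 9.38 in NTC IR-1. CR45197 was listed at 6.21, 3.90 and 6.34 CPM in dYEATS2-IR, 22.0, 4.98 and 24.0 in dENL/AF9-IR, 11.97, 4.97 and 18.1 in NTC IR-2, against 6.29, 7.30 and 8.30 in NTC IR-1. The levels of CR44946 and CR45180 lay within the range of the 3 RNAs just above the minimum, at 6.15 to 22.2 CPM, and those of CR45197 ran beyond it at both ends, with its 3 highest libraries in dENL/AF9-IR and NTC IR-2.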

How the data were processed

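Strand-specific mRNA libraries (TruSeq) were made from head RNA, per the labels' protocols. The authors deposited raw counts per gene, and a table of normalized values (unit: signal, counts divided by 1 size factor per library), used here only to compare group names. The submitters' processing notes list FastQC 0.12.0, Trim Galore 0.6.5, HISAT2, SAMtools, UMI-tools, Picard and DESeq2, and the builds BDGP6 and dm6. The counter and its use of strand are not given in the sources used here. Columns were matched to samples by library name, since for replicates 1 and 2 of NTC IR-2 the labels list further columns that belong to other libraries. The members and lists were chosen with earlier results of these data known. Values for every library are given for the 10 highest totals, for the RNAs called, and for the 3 totals on each side of the minimum of 6000. Counts were fitted with edgeR 4.0.16 (R 4.3.3; TMM, filterByExpr, quasi-likelihood F test) in 1 model of 12 libraries with 8 residual degrees of freedom, and p-values were adjusted over all 12661 rows tested. The fit was checked on simulated counts. DESeq2 1.42.0, other scalings and filters, a replicate block, other controls, the other group names and fits without each library were alternatives. Positions, exon lengths and neighbours came from the Ensembl release 115 annotation of BDGP6, in which 20 of the 21 RNAs matched by symbol and CR31451 by synonym. No pair of libraries of the same group agreed within sampling noise.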

Additional observations from a re-analysis of the deposited data

How the results depend on the processing

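In dYEATS2-IR against NTC IR-1, the 2 calls became 1, noe, with library totals, without the filter on low counts or with a replicate block. With the 6 libraries fitted alone neither of the 2 was kept, and the 1 call was CR44832, lower. There were 4 calls with DESeq2, 9 against NTC IR-2 (where CR42491 was at 0.38, FDR 0.518) and 0 to 5 without single libraries. For dENL/AF9-IR against NTC IR-2, the 0 calls became 5 against NTC IR-1 and stayed at 0 without single libraries. In NTC IR-2 against NTC IR-1, the 6 calls became 3 with those 6 libraries alone and 3 to 8 without single libraries. Across the 4 groups, the 10 calls became 5 with library totals and 6 to 11 without single libraries. The difference between both knockdown effects stayed at 0 calls without single libraries.

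Under the group names of the normalized table, dYEATS2-IR against NTC IR-1 had 0 calls, dENL/AF9-IR against NTC IR-2 had 2, and the difference between both effects had 1. The log2 fold changes in NTC IR-2 against NTC IR-1 then were -0.67 for CRG, 0.68 for CR44922, -0.82 for CR44024, -1.24 for CR45102, 0.38 for CR42491 and -0.59 for CR45409. That comparison sets the libraries called dYEATS2-IR here against those called NTC IR-2 here. Its values and its 9 calls are therefore those given above for dYEATS2-IR against NTC IR-2.

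Same-numbered libraries did not deviate together in the comparisons of each knockdown with its control and of both controls (correlations of deviations from -0.226 to 0.0189). The labels do not say whether a number marks a shared batch, and these correlations over all rows cannot show that none was shared. With the replicate block, FDR was 0.0333 for noe and 0.0755 for CR42491 in dYEATS2-IR against NTC IR-1, and the calls were 1 there, 5 between the controls and 7 across the 4 groups. Of 114 values of single RNAs under an alternative, 75 kept their direction and call, 32 lost the call and 7 reversed. The reversals came from the group names of the normalized table, for the RNAs called between the controls, and from NTC IR-2 as the control, for CR42491 in dYEATS2-IR. With 3 libraries per group, RNAs with a wide spread within groups, such as CR31781 and CR32553, could show only large changes.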

Other observations

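Single libraries held many of the extremes. Replicate 1 of dYEATS2-IR had the lowest level of the 12 libraries for 8 of the 21 RNAs, and replicate 1 of NTC IR-1 for 4. Replicate 2 of NTC IR-2 had the highest level for 5, and replicate 3 of dENL/AF9-IR and replicate 1 of NTC IR-2 for 4 each. Summed over the 21 RNAs, the level was 5621 to 7421 CPM in dYEATS2-IR, 7866 to 8394 in dENL/AF9-IR, 6372 to 9509 in NTC IR-2 and 6132 to 6773 in NTC IR-1, most of it from CR42862.

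The 382 other long noncoding RNA rows tested summed to 426.8 to 475.3 CPM in dYEATS2-IR, 495.8 to 547.8 in dENL/AF9-IR, 491.9 to 527.8 in NTC IR-2 and 509.5 to 527.3 in NTC IR-1, so the 3 dYEATS2-IR libraries were below the other 9. In dYEATS2-IR against NTC IR-1, 5 of them rose and 7 fell (136 with a positive and 246 with a negative log2 fold change), where 2.42% of all rows rose and 2.35% fell. Glial RNA, summed over 9 markers, was 1226 to 1575 CPM in dYEATS2-IR, 1569 to 1679 in dENL/AF9-IR, 1387 to 1800 in NTC IR-2 and 1211 to 1702 in NTC IR-1. In dYEATS2-IR against NTC IR-1, 1 of the 9 was called, lower, where 2.35% of all rows fell. In NTC IR-2 against NTC IR-1, 3 of the 9 were called, all lower, where 9.16% of all rows fell. Of 8 muscle markers, 0 differed across the 4 groups by edgeR's quasi-likelihood test, where 2 had an unadjusted p below 0.05 and DESeq2 called 2. Of all rows, 19.6% differed across the 4 groups by that edgeR test. In NTC IR-2 against NTC IR-1 alone, 1 of the 8 rose by that edgeR test, bt (log2 fold change 0.58, FDR 0.0351), and 1 fell, TpnC4 (-3.14, FDR 0.0345), at no more than 1.12 CPM in any library. Among all rows 10.3% rose and 9.16% fell there.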
